A study of Homo sapiens with 24 samples.

Results

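The 37 genes described here are 18 glycolytic enzymes and their regulators, 4 genes of glucose and lactate transport and of the pyruvate gate, and 15 genes of oxygen sensing and of the response to hypoxia. They were taken by symbol from a table of 59251 genes. All 37 were found and all 37 passed the filter on low counts, which left 20820 genes for testing. Their levels were read in MCF10A, an established breast epithelial cell line, in a non-transformed form named PE and a MYC-transformed form named PM. Each line carried 1 of 3 hairpins: shGFP, the control, or shCHD1 A or shCHD1 B against CHD1, a chromatin remodelling ATPase. There were 6 groups of 4 libraries, and every culture, controls included, was exposed to doxycycline at 50 ng/ml for 72 h. The series asks whether MYC-driven breast cancer depends on CHD1. The labels do not spell out PE and PM, do not say whether a line is 1 clone, and number the libraries of a group as biological replicates without more detail, so a p-value here reflects the scatter of these libraries, which may be technical.

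Glycolysis splits glucose into pyruvate. Hexokinase and phosphofructokinase commit the sugar, the lower enzymes recover ATP, and lactate dehydrogenase turns pyruvate into lactate, which leaves the cell through monocarboxylate transporters. When oxygen is scarce, the prolyl hydroxylases of the EGLN family stop marking the alpha subunits of hypoxia-inducible factor (HIF) for degradation, and HIF raises most of these genes together with those for angiogenesis, pH control and mitophagy. HIF1A is governed mainly through protein stability, which transcript counts do not measure, and MYC is also known to bind glycolytic promoters, at E-boxes.

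HIF binds DNA at the core ACGTG or GCGTG, and the canonical E-box is CACGTG, which contains the HIF core ACGTG. These letters were searched on both strands in windows of 300 bases, from 250 before to 50 after each RefSeq gene start of GRCh38.p14. Of the 37 members, 33 had an entry, with 61 windows in all (no entry for SLC2A3, VEGFA, NDRG1 and BNIP3L). A HIF core stood in 41 of the 61 windows (67.2%) and in 48.4% of all 35116 windows. ACGTG was in 39.3% of the members' windows against 21.4% of all, GCGTG in 41% against 36.5%, and CACGTG in 13.1% against 7.26%. A match describes letters and is not a binding site, and no match says only that the letters are not in that window. The stretches below, the 250 bases before the start, were chosen after values were seen. BNIP3 (which rose in PE) and LDHA (a textbook HIF and MYC target) hold 6 and 5 core matches over both strands. Each CACGTG is counted on both strands in these numbers. KDM3A and HIF1A (which fell in PM) hold 1 each. Counts varied among other members that rose in PE: of ACGTG, the windows of PGAM1, GPI, P4HA1 and GAPDH held 0, 1, 1 and 2. Whether matches go with the direction of change was not tested. They lie at chr10:131981924-131982173 on the minus strand and, on the plus strand, at chr11:18394313-18394562, chr2:86441121-86441370 and chr14:61695263-61695512. Each is printed 5′ to 3′ on the strand of its gene, and capitals mark a HIF core on either strand, so that CACGT and CACGC are cores read from the other strand.
BNIP3: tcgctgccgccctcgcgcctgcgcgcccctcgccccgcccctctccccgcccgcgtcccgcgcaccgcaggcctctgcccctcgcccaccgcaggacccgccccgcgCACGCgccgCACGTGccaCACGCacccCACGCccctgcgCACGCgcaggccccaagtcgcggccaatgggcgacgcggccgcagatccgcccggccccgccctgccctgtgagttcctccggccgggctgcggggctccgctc
LDHA: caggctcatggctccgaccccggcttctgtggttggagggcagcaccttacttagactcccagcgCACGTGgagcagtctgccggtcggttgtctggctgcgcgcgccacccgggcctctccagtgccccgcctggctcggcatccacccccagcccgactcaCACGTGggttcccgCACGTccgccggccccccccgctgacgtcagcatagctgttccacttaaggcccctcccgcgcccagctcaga
KDM3A: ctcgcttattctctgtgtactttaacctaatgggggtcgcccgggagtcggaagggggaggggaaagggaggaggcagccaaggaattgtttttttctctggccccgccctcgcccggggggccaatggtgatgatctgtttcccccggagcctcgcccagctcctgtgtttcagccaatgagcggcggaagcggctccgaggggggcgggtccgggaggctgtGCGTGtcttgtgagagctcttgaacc
HIF1A: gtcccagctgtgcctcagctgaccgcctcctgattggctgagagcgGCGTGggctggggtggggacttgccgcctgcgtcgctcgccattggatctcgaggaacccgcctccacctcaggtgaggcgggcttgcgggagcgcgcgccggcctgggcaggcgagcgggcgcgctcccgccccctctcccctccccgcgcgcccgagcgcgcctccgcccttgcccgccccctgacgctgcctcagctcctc
In the BNIP3 and LDHA stretches the capitals include the palindrome CACGTG, an E-box and a HIF core at once.

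Total counts per library ran from 4.14 to 93.3 M with a median of 49.5 M, lowest in replicate 1 of PE shGFP. Beside that library, replicate 3 of PM shCHD1 B stood apart with 33137 genes with a count (the others had 18380 to 24764), and replicate 4 of PM shCHD1 A with 7.05% of counts from mitochondrial genes (the others 4.36% to 6.26%). Levels are given in CPM after TMM scaling, in the order of replicates 1 to 4, and ± is the SD of 4 libraries. CHD1 had a mean of 78.8 CPM with shGFP in PE and 90.0 in PM, and between 28.1 and 31 in the 4 groups with shCHD1. MYC stood at 275 CPM in PE shGFP and 518 in PM shGFP. Of 13 markers of mammary epithelium, 12 had a mean of at least 1 CPM in every group but PE shCHD1 B, where 10 did. Their summed level was 5411 to 7503 CPM in PE shGFP, 3584 to 4911 with shCHD1 A and 2589 to 3152 with shCHD1 B, and in PM 4548 to 5371, 2634 to 2867 and 3239 to 3566 CPM. Of 10 immune markers 2 reached 1 CPM, and of 10 fibroblast and endothelial markers 3 to 5. Of the 13 epithelial markers 2 rose and 8 fell with shCHD1 in PE (against 13.1% and 12.7% of all tested genes). In PM 2 rose and 5 fell (against 13.3% and 15.1%). With the replicate number as a block 3 rose and 5 fell in PM (against 15.1% and 17%). The sum was carried mostly by LAMB3, KRT6A and KRT5. LAMB3 had a mean of 2692 CPM in PE shGFP, 856 with shCHD1 A and 716 with shCHD1 B, and 1202, 229 and 335 CPM in PM, while KRT8 was at 237, 386 and 369 CPM in PE and 298, 349 and 317 in PM. The part of these markers in the results below was not tested. In bulk RNA, fewer cells of a kind and less RNA per cell cannot be told apart.

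With shCHD1 in PE, genes of glucose uptake, glycolysis and mitophagy rose together with VEGFA, and no member fell in the mean effect of the hairpins. Of the 37 members, 13 rose, against 13.1% of all tested genes, and 0 fell, against 12.7%. The log2 change was positive for 34 members, with a median of 0.33 (all tested genes −0.0031). The rises were of SLC2A1, VEGFA, BNIP3L, BNIP3, ALDOA, P4HA1, GPI, PKM, SLC16A3, GAPDH, PFKP, PGAM1 and TPI1. The 37 genes together took between 1.93% and 2.35% of all counts in the libraries of PE shGFP and between 2.32% and 2.82% in those with shCHD1. The tests are edgeR's quasi-likelihood test, with p-values adjusted by Benjamini and Hochberg over all tested genes.

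**Figure D1:**
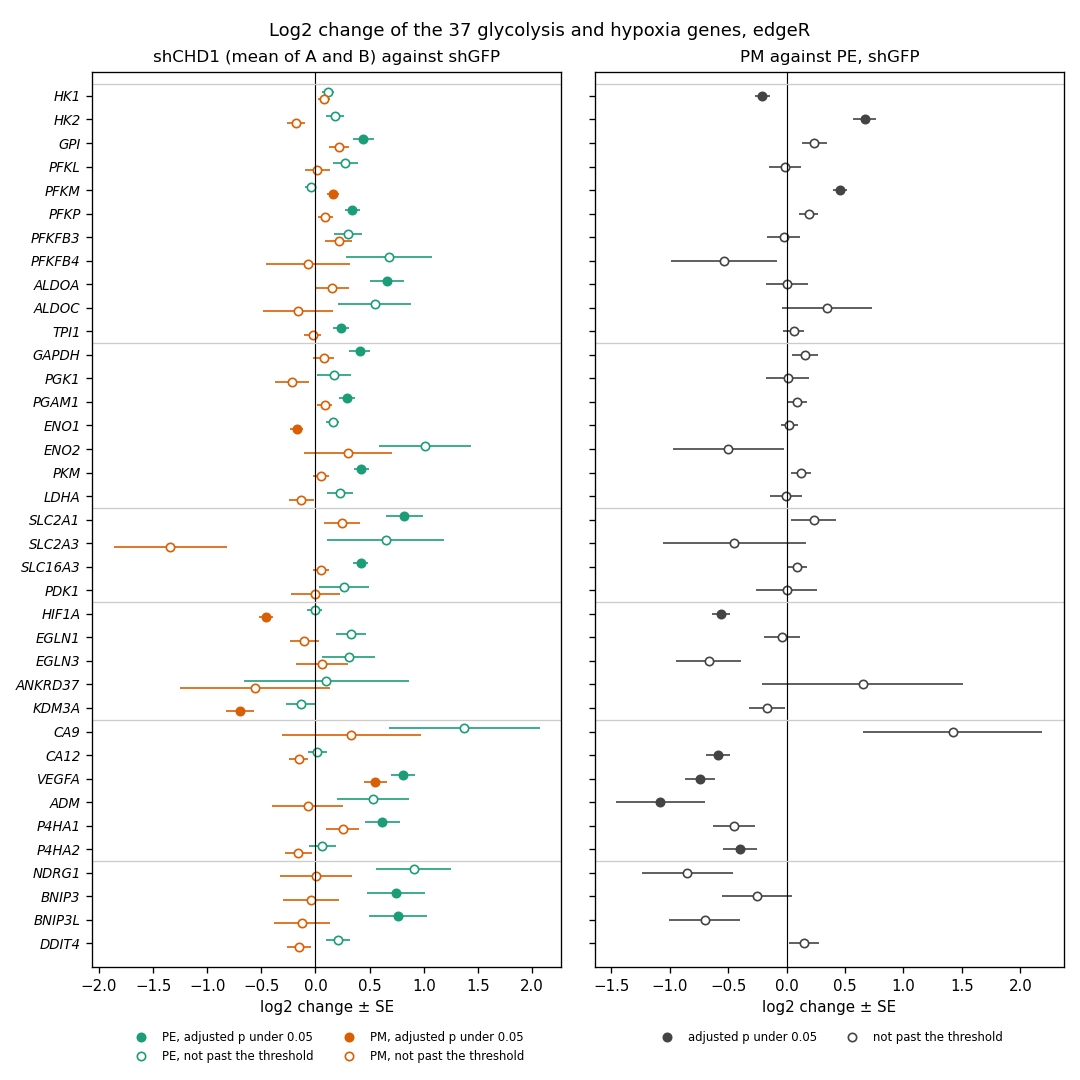
Log2 change (x axis, with its SE as a bar) of the 37 members, in the order of their roles (grey lines divide the 6 role groups), for shCHD1 against shGFP in PE and PM (left) and for PM against PE with shGFP (right). Filled points passed the adjusted threshold of 0.05: 13 in PE, all to the right of 0, against 5 in PM and 8 between the lines.

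The largest log2 change among the 13 members that rose was that of the glucose transporter SLC2A1. SLC2A1 (GLUT1, the main basal glucose transporter, chr1:42925375-42959176 in GRCh38) was at 62.5, 63.9, 95.3 and 91.9 CPM with shGFP. It was at 112, 110.3, 142 and 151 CPM with shCHD1 A and at 129, 129, 177 and 178 with shCHD1 B. Every library with shCHD1 lay above every library with shGFP (log2 change 0.82, SE 0.17, adjusted p = 0.00118). SLC2A3 (GLUT3, a neuronal high-affinity transporter) was close to the detection limit, between 0 and 2.65 CPM with shGFP and between 1.33 and 4.08 with shCHD1, and did not pass the test (adjusted p = 0.441).

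Among the upper enzymes, 4 of 11 rose in PE. GPI, which turns glucose 6-phosphate into fructose 6-phosphate, had 592, 678, 776 and 865 CPM with shGFP, 893, 930.3, 1032 and 1143 with shCHD1 A and 942, 846, 1032 and 1096 with shCHD1 B (log2 change 0.44, SE 0.10, adjusted p = 0.0014). The highest shGFP library overlapped the lowest one with shCHD1 B. PFKP, the platelet form of phosphofructokinase, was at 410.4 ± 53.7 CPM with shGFP, 476 ± 54.3 with shCHD1 A and 569 ± 54.2 with shCHD1 B (log2 change 0.34, SE 0.07, adjusted p = 0.000422). The other forms, PFKL of liver and PFKM of muscle, were at a log2 change of 0.28 and −0.04 and did not pass. TPI1, triosephosphate isomerase, was at 0.24 and passed (adjusted p = 0.0208). The aldolase row ALDOA had only 15.4, 21.3, 26.5 and 28.5 CPM with shGFP, 33.7, 37.2, 45.5 and 48.3 with shCHD1 A and 34.7, 32.8, 36.9 and 34.4 with shCHD1 B. Its groups did not overlap (log2 change 0.66, SE 0.16, adjusted p = 0.00287), but its value is uncertain, because the row shares its locus with another coding row, LOC112694756, and how shared reads were counted is not given in the sources used here. The hexokinases HK1 and HK2 did not pass (log2 change 0.12 and 0.18).

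In the lower pathway 3 of 7 enzymes rose in PE, and all 7 had positive changes. PKM, a pyruvate kinase gene whose row does not separate its isoforms, was at 2188, 2340.2, 2904 and 2858 CPM with shGFP. It was at 3217, 3295, 3649.7 and 3677 with shCHD1 A and 3149.5, 3113, 3603 and 3938 with shCHD1 B. The lowest library with shCHD1 lay above the highest with shGFP (log2 change 0.43, SE 0.07, adjusted p = 4.57e-05). GAPDH, often used as a reference transcript, went from 4175 ± 562 CPM to 5567 ± 529 and 5513 ± 753 (log2 change 0.41, SE 0.10, adjusted p = 0.00268). PGAM1, phosphoglycerate mutase, went from 624 ± 94.7 to 769 ± 61.7 and 760.3 ± 64.1 CPM (log2 change 0.29). PGK1, ENO1, ENO2 and LDHA had log2 changes of 0.17, 0.16, 1.01 and 0.23 and did not pass. ENO2, the neuronal enolase, had the widest error of these (SE 0.43), at 11.6 CPM with shGFP.

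SLC16A3 (MCT4, which exports lactate) rose in PE. Its libraries were at 469.7, 607, 686 and 680.3 CPM with shGFP, 748, 882, 842 and 886 with shCHD1 A and 721, 749, 822 and 887 with shCHD1 B. The groups did not overlap (log2 change 0.42, SE 0.07, adjusted p = 5.34e-05). SLC16A3 shares part of its locus with CSNK1D, so its value carries an uncertainty from the counting. PDK1, the kinase that closes the pyruvate dehydrogenase gate, did not pass (log2 change 0.27, SE 0.23).

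Of 6 HIF targets for pH, angiogenesis and matrix, 2 rose in PE. VEGFA, the vascular endothelial growth factor (chr6:43770184-43786487), was at 165, 164, 199 and 157 CPM with shGFP, 271, 273, 324 and 303 with shCHD1 A and 284, 261, 357 and 332 with shCHD1 B. No library with shCHD1 overlapped those with shGFP (log2 change 0.81, SE 0.11, adjusted p = 7.36e-06). P4HA1, a catalytic subunit of collagen prolyl 4-hydroxylase, was at 93.9, 73.8, 113 and 98.0 CPM with shGFP, 119, 115, 154 and 151 with shCHD1 A and 128, 125, 185 and 194 with shCHD1 B (log2 change 0.62, SE 0.16, adjusted p = 0.0065). These groups did not overlap either, while the paralogue P4HA2 was at a log2 change of 0.06 and did not pass. CA9, carbonic anhydrase IX, ranged from 8.31 to 72.8 CPM with shGFP and from 42.2 to 204 with shCHD1. Its log2 change of 1.38 had an SE of 0.70 and did not pass (adjusted p = 0.171). ADM, the vasodilator peptide adrenomedullin, was at 0.53 (SE 0.33) and did not pass.

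The mitophagy receptors BNIP3 and BNIP3L rose in PE, narrowly past the threshold in the fit without a block. BNIP3 was at 48.3, 58.7, 112 and 114 CPM with shGFP, 98.7, 94.0, 144 and 164 with shCHD1 A and 138, 137, 179 and 202 with shCHD1 B (log2 change 0.74, SE 0.27, adjusted p = 0.0498). Its shGFP libraries overlapped those with shCHD1 A but not those with shCHD1 B. BNIP3L was at 41.6, 38.8, 72.4 and 67.0 CPM with shGFP, 72.7, 66.1, 99.6 and 107 with shCHD1 A and 84.6, 80.5, 127 and 129.9 with shCHD1 B (log2 change 0.76, SE 0.27, adjusted p = 0.044). Both calls were lost without any 1 of these libraries: replicates 1 and 2 of PE shGFP, replicates 3 and 4 of PE shCHD1 A, and replicates 3 and 4 of PE shCHD1 B. The BNIP3 call was also lost without replicate 1 of PE shCHD1 B, and the BNIP3L call without replicate 4 of PE shGFP. Among these fits, the highest adjusted p, 0.171 for BNIP3 and 0.157 for BNIP3L, came without replicate 2 of PE shGFP. BNIP3 also has 40 pseudogene rows, which held 3.32% of its own count, and shares its locus in part with PPP2R2D. NDRG1, a stress-response gene, changed by 1.20 on the log2 scale with shCHD1 B, where it passed (adjusted p = 0.0269), and was at 0.62 with shCHD1 A, where it did not (adjusted p = 0.309). DDIT4 (REDD1, an inhibitor of mTORC1) was at 0.21 in the mean of the hairpins and did not pass. With the replicate number as a block, these 4 genes all rose in the mean effect. These libraries narrowly missed the rule for pairing given with the processing, and no share of all tested genes is given for that fit. Within replicate numbers 1 to 4 the log2 change of BNIP3L was 0.91, 0.90, 0.63 and 0.81.

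**Figure D2:**
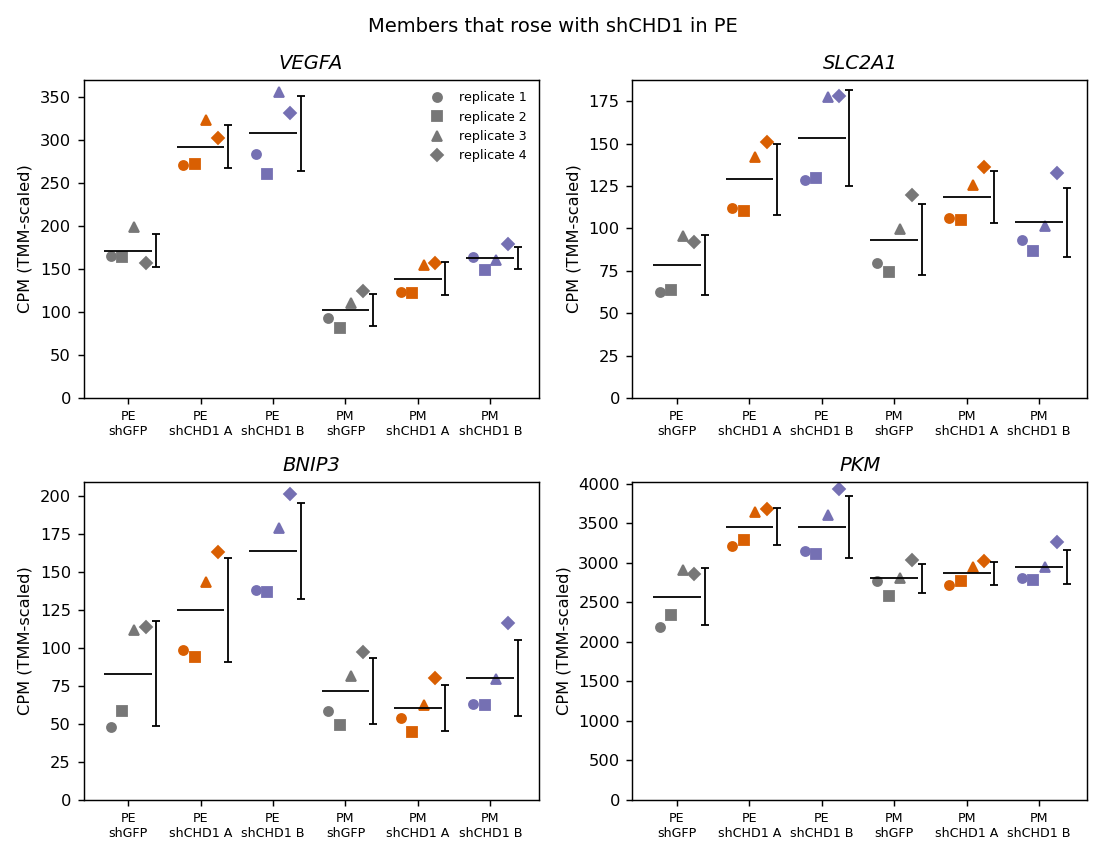
Level in CPM (y axis from 0) of VEGFA, SLC2A1, BNIP3 and PKM in each of the 24 libraries by group, with symbols for the replicate number, a line at the mean and a bar of ± 1 SD. VEGFA, SLC2A1 and PKM of PE lie higher with both CHD1 hairpins than with shGFP without overlap, and replicates 3 and 4 of BNIP3 lie above replicates 1 and 2 in all 6 groups.

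Oxygen-sensing members gave 0 calls of 5 in the mean effect in PE, and the hairpins had changes of opposite sign for HIF1A (chr14:61695513-61748259). Its libraries were at 506, 437, 473 and 463 CPM with shGFP, 573, 549, 519 and 505 with shCHD1 A and 405, 402, 389 and 424 with shCHD1 B. The shCHD1 B libraries lay below all shGFP libraries (log2 change −0.21, adjusted p = 0.0355), and those with shCHD1 A overlapped them (0.19, adjusted p = 0.0697). The replicate numbers paired the libraries of PE shGFP and shCHD1 A by the rule given with the processing, and with the number as a block the rise with shCHD1 A passed (adjusted p = 0.0248). EGLN1, the main prolyl hydroxylase, was at 0.33 and its paralogue EGLN3 at 0.31, and neither passed. KDM3A, a demethylase of histone H3, was at −0.13, and ANKRD37 stayed under 1 CPM in all 24 libraries. Its locus overlaps the far higher rows of UFSP2 and LRP2BP, so its value is uncertain.

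Taken singly, shCHD1 A gave 12 rises and 0 falls in PE (against 10.9% and 9.33% of all tested genes), and shCHD1 B gave 17 rises and 2 falls (against 13.6% and 13.2%). These comparisons share the shGFP libraries. The 2 falls with shCHD1 B were of HIF1A and CA12, carbonic anhydrase XII. CA12 went the other way with shCHD1 A, whose libraries lay above those with shGFP in both lines without overlap. Per kilobase of merged exons its mean in PE was 24.8 CPM with shGFP, 31.3 with shCHD1 A and 20.2 with shCHD1 B. In PM these means were 16.5, 18.6 and 11.8. All 4 stress and mitophagy genes passed with shCHD1 B, at log2 changes of 1.20 for NDRG1, 0.94 for BNIP3, 0.91 for BNIP3L and 0.37 for DDIT4. With shCHD1 A the same genes were at 0.62, 0.55, 0.62 and 0.04, and none passed. With the replicate number as a block, which paired these libraries, NDRG1, BNIP3 and BNIP3L passed with shCHD1 A too (log2 change 0.62, 0.59 and 0.66, adjusted p = 5.51e-07, 4.35e-05 and 3.91e-08), and DDIT4 did not (adjusted p = 0.68). In that fit shCHD1 A gave 29 rises and 0 falls (against 13.2% and 10.9%). The 19 calls for shCHD1 B became 11 without replicate 3 of PE shCHD1 B or replicate 1 of PE shGFP, and 12 without replicate 2 of PE shGFP. Without the 3 libraries that stood apart (replicate 1 of PE shGFP, replicate 4 of PM shCHD1 A and replicate 3 of PM shCHD1 B), a setting chosen after seeing the data, shCHD1 A gave 7 calls and shCHD1 B 10.

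In PM calls went in both directions. Of 37 members, 2 rose (VEGFA and PFKM) against 13.3% of all tested genes, and 3 fell (KDM3A, HIF1A and ENO1) against 15.1%. The changes were positive for 18 members and negative for 19, with a median of −0.00063 (all tested genes −0.01). The 37 genes took between 1.92% and 2.36% of all counts with shGFP and between 1.99% and 2.42% with shCHD1, and the groups overlapped. The numbers paired these libraries, and with the number as a block 7 members rose (against 15.1%) and 10 fell (against 17%). The further rises were then of GPI, PFKFB3, SLC2A1, CA9 and P4HA1, and the further falls of HK2, PGK1, LDHA, SLC2A3, CA12, P4HA2 and DDIT4.

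HIF1A and KDM3A fell in PM. HIF1A was at 310.0, 298, 328 and 335 CPM with shGFP, 202, 199, 178 and 243 with shCHD1 A and 269, 268, 221 and 291 with shCHD1 B. The highest library with shCHD1 lay below the lowest with shGFP (log2 change −0.45, SE 0.06, adjusted p = 1.13e-06). KDM3A (chr2:86440647-86492716), itself a known HIF target, was at 48.2, 42.5, 58.3 and 57.8 CPM with shGFP, 30.1, 28.1, 30.7 and 41.6 with shCHD1 A and 26.7, 29.9, 33.1 and 35.8 with shCHD1 B. These groups did not overlap (log2 change −0.70, SE 0.13, adjusted p = 0.00022). The hydroxylases EGLN1 and EGLN3 were at log2 changes of −0.10 and 0.06 and did not pass.

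VEGFA rose in PM as it did in PE. Its libraries were at 93.0, 81.9, 110.4 and 125 CPM with shGFP, 123, 122, 155 and 157 with shCHD1 A and 164, 149, 160.1 and 179.6 with shCHD1 B. The lowest libraries with shCHD1 A lay within the range of shGFP, and those with shCHD1 B lay above it (log2 change 0.55, SE 0.11, adjusted p = 0.000432). Among the other members of its role, CA9 ranged from 28.9 to 221 CPM with shGFP and from 48.4 to 263 with shCHD1, so its log2 change of 0.33 (SE 0.64) was inside the spread and passed only with the block (adjusted p = 0.0453). ADM, P4HA1 and P4HA2 were at −0.07, 0.25 and −0.16.

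Glycolytic enzymes gave 2 calls of 18 in PM, in opposite directions. PFKM was at 204, 206, 198 and 198 CPM with shGFP, 244, 262, 255 and 239.7 with shCHD1 A and 199, 204, 193 and 213 with shCHD1 B (log2 change 0.16, SE 0.05, adjusted p = 0.0237). The rise stood with shCHD1 A alone, where the change was 0.31, against 0.01 with shCHD1 B, and PFKM overlaps the row of SENP1, so its value carries that uncertainty. ENO1, the ubiquitous enolase, was at 3958, 3683, 3899.7 and 4138 CPM with shGFP, 3689.8, 3729, 3932 and 3889 with shCHD1 A and 3084, 3024, 3031 and 3555 with shCHD1 B (log2 change −0.17, SE 0.06, adjusted p = 0.0284). Its shCHD1 B libraries lay below all shGFP libraries, and its shCHD1 A libraries overlapped them. The ENO1 call was lost without any 1 of 4 libraries: replicates 1, 3 and 4 of PM shGFP and replicate 3 of PM shCHD1 B, with the highest adjusted p, 0.0984, without replicate 4 of PM shGFP. PKM, GAPDH and LDHA of the lower pathway were at 0.05, 0.08 and −0.13 and did not pass, while LDHA fell with the block (adjusted p = 0.0136).

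Transport and mitophagy genes gave 0 calls in the mean effect in PM without the block. SLC2A1 was at 93.4 ± 20.8 CPM with shGFP, 118 ± 15.3 with shCHD1 A and 104 ± 20.3 with shCHD1 B (log2 change 0.24, SE 0.16, adjusted p = 0.314), and with the block it passed (adjusted p = 0.00023). BNIP3 was at 71.6 ± 21.7, 60.3 ± 15.2 and 80.2 ± 25.3 CPM (adjusted p = 0.935), and its groups overlapped. The hairpins went opposite ways for the 4 stress and mitophagy members with the block. With shCHD1 A 0 rose and 3 fell (against 15.2% and 16.1% of all tested genes). With shCHD1 B 3 rose and 0 fell (against 15.4% and 16.5%), and all 4 were higher with B than with A (against 14.8%). SLC2A3 fell with shCHD1 A, from 1.01, 0.607, 1.16 and 1.75 CPM to 0.164, 0, 0.571 and 0.228 (adjusted p = 0.0197), at the edge of detection.

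By hairpin, shCHD1 A gave 3 rises and 4 falls in PM (against 13.4% and 14.3% of all tested genes) and shCHD1 B gave 1 rise and 5 falls (against 13.6% and 14.4%). The rises with shCHD1 A were of VEGFA, GPI and PFKM and the falls of SLC2A3, KDM3A, HIF1A and DDIT4. With shCHD1 B VEGFA rose, and KDM3A, CA12, HK2, ENO1 and HIF1A fell. With the replicate number as a block these counts were 10 and 9 for shCHD1 A (against 15.2% and 16.1%) and 9 and 8 for shCHD1 B (against 15.4% and 16.5%).

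**Figure D3:**
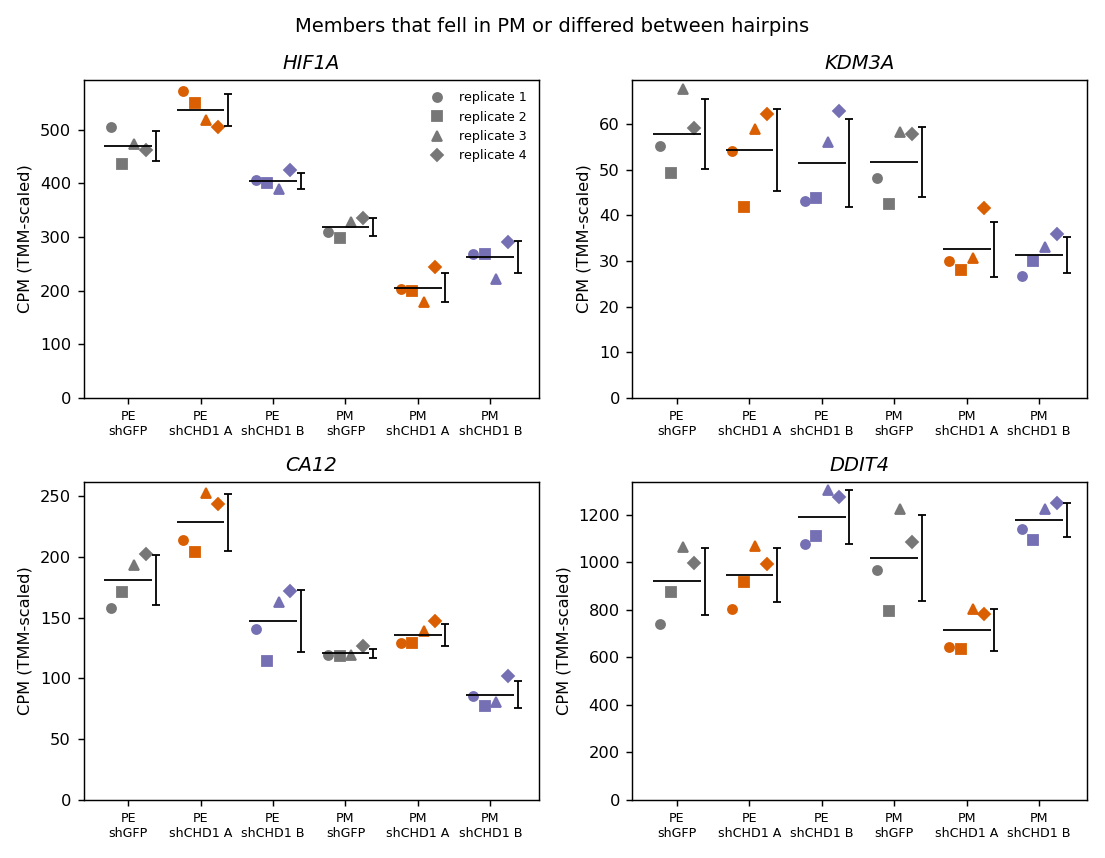
Level in CPM (y axis from 0) of HIF1A, KDM3A, CA12 and DDIT4 in each of the 24 libraries by group, drawn with symbols for the replicate number, a line at the mean and a bar of ± 1 SD. HIF1A and KDM3A of PM lie lower with both CHD1 hairpins than with shGFP without overlap, and CA12 lies lower with shCHD1 B than with shCHD1 A in both lines.

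The effect of shCHD1 on 4 members was lower in PM than in PE by a test of the difference itself. The difference of the mean effects (PM minus PE) was negative for 36 of 37 members, with a median of −0.37 (all tested genes −0.01), and PFKM was the exception, at 0.20. The difference itself passed the test for 4 members, all negative, against 2.16% of all tested genes, and for 0 in the positive direction, against 1.77%. HIF1A stood at −0.44 (SE 0.09, adjusted p = 0.00317), from an effect of −0.01 in PE and −0.45 in PM. The mean effect of HIF1A in PE combines hairpins with changes of opposite sign. Per kilobase of merged exons HIF1A was at 91.2 CPM with shGFP, 104.2 with shCHD1 A and 78.6 with shCHD1 B in PE. In PM these means were 61.7, 39.9 and 51.0, so the lines lay further apart in their change with A than with B. The difference was not tested for each hairpin. PKM stood at −0.37 (adjusted p = 0.0328), from 0.43 and 0.05, and SLC16A3 at −0.37 (adjusted p = 0.0362), from 0.42 and 0.05. ENO1 stood at −0.33 (adjusted p = 0.0192), from 0.16 and −0.17. For the other members called in PE, such as SLC2A1 (−0.58, adjusted p = 0.206) and BNIP3 (−0.79, adjusted p = 0.296), the difference between the lines did not pass, and for VEGFA it was −0.25 (adjusted p = 0.446).

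These 4 calls were sensitive to single libraries. Their number fell to 1 without replicate 1 or replicate 2 of PE shGFP, and to 2 without replicate 3 of PE shCHD1 B, replicate 3 or 4 of PM shGFP, or replicate 1 or 3 of PM shCHD1 B. Without the 3 libraries that stood apart, 1 call was left. HIF1A passed in each of the 24 fits that left out 1 library, with an adjusted p of at most 0.0141. ENO1 lost its call without replicate 1 or replicate 2 of PE shGFP. PKM lost it without any 1 of the 7 libraries named first. SLC16A3 lost it without any of those 7 and also without replicate 4 of PE shCHD1 A or replicate 1 of PM shGFP.

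Between the lines, the MYC-transformed PM cells with shGFP had less transcript of HIF1A, VEGFA, ADM, P4HA2, CA12 and HK1 than PE cells, and more of HK2 and PFKM. Of 37 members 2 were higher in PM (against 14.1% of all tested genes) and 6 lower (against 11.4%). Members' changes had a median of −0.0033 (all tested genes 0.02). VEGFA was at 171 CPM in PE and 103 in PM, from the libraries given above, which did not overlap (log2 change −0.74, SE 0.13, adjusted p = 9.23e-05). HIF1A was at 469.6 and 318 CPM, again without overlap (log2 change −0.56, SE 0.08, adjusted p = 6.21e-07).

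CA12 was at 158, 171, 193 and 202 CPM in PE shGFP and 119, 118, 119 and 126 in PM shGFP (log2 change −0.59, SE 0.10, adjusted p = 6.89e-05), and the groups did not overlap. ADM was at 24.9, 28.8, 68.3 and 67.4 CPM against 16.4, 16.6, 25.9 and 34.4 (log2 change −1.08, SE 0.38, adjusted p = 0.0435). Its groups overlapped, and its call was lost without any 1 of 5 libraries, replicates 3 and 4 of PE shGFP and replicates 1, 2 and 3 of PM shGFP, with a highest adjusted p of 0.158. P4HA2 was at 119.7, 114, 181 and 138 CPM against 98.2, 93.8, 113 and 118 (log2 change −0.40, SE 0.15, adjusted p = 0.0497), and lost its call without any 1 of 4 libraries, replicates 3 and 4 of PE shGFP and replicates 1 and 2 of PM shGFP, with a highest adjusted p of 0.244.

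The hexokinases went opposite ways between the lines. HK2, the inducible form often high in tumours, was at 78.8, 92.2, 99.3 and 95.6 CPM in PE shGFP and 133, 144, 151 and 157 in PM shGFP (log2 change 0.67, SE 0.10, adjusted p = 3.9e-06). HK1, the form of most tissues, was at 338, 337, 391 and 368 CPM against 297, 296, 314 and 337 (log2 change −0.21, SE 0.06, adjusted p = 0.0119). Neither gene overlapped between the lines, HK1 by a narrow margin. The HK1 call was lost without replicate 3 of PE shGFP (adjusted p = 0.0863). PFKM was higher in PM as well, at 204, 206, 198 and 198 CPM against 134, 161, 143 and 148 (log2 change 0.46, SE 0.06, adjusted p = 7.54e-07). The other enzymes of glycolysis did not pass between the lines. LDHA was at 2474 and 2469.8 CPM and ENO1 at 3854 and 3919.6, while some others lay further apart. Per kilobase of merged exons, PFKFB4 was at 3.83 CPM in PE shGFP and 2.74 in PM shGFP, and ALDOC at 13.6 and 18.0. None of the 7 lower enzymes passed, with log2 changes from −0.50 for ENO2 to 0.16 for GAPDH.

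The CHD1 hairpins differed from each other for a few members, while CHD1 itself did not pass between them (log2 change −0.06 in PE and −0.08 in PM). In PE shCHD1 B was higher than A for 2 members (against 7.48% of all tested genes) and lower for 3 (against 9.09%). In PM it was higher for 3 (against 12.7%) and lower for 5 (against 13.5%). CA12 was lower with B in each line. In PE it was at 214, 204, 253 and 243 CPM with A and 141, 115, 163 and 172 with B (log2 change −0.63, SE 0.10, adjusted p = 5.36e-05), and in PM at 129, 129, 139 and 147 with A and 85.6, 77.5, 80.7 and 102 with B (log2 change −0.65, SE 0.10, adjusted p = 2.07e-05). Neither pair of groups overlapped.

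HIF1A differed between the hairpins in opposite directions, lower with B in PE (−0.41, adjusted p = 0.000166) and higher with B in PM (0.35, adjusted p = 0.00053). PFKFB3, which makes the allosteric activator of phosphofructokinase, was at 55.3, 60.9, 62.0 and 77.4 CPM with A and 86.0, 87.0, 116 and 118 with B in PE (log2 change 0.67, SE 0.14, adjusted p = 0.00173). These groups did not overlap, while in PM the difference was 0.04 (adjusted p = 0.882). PFKP was higher with B in both lines, by 0.26 in PE and 0.23 in PM, and ENO1 was lower, at −0.23 and −0.26. In PE the PFKP call was lost without replicate 1 or 2 of PE shCHD1 A or replicate 3 or 4 of PE shCHD1 B, with a highest adjusted p of 0.0798.

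In PM, DDIT4 was at 642, 633, 803 and 781 CPM with A and 1141, 1093, 1222 and 1248 with B (log2 change 0.72, SE 0.13, adjusted p = 0.000233), without overlap. HK2 was at 151, 159, 158 and 156 CPM with A and 108, 97.8, 93.5 and 130.3 with B (log2 change −0.54, SE 0.10, adjusted p = 7.39e-05), and GPI at 1079.6, 1055, 1255 and 1199.7 with A and 856, 777, 844 and 1003 with B (log2 change −0.40, SE 0.11, adjusted p = 0.00876). HK2 and GPI were both lower with B without overlap, and so was PFKM (−0.31). MYC was also lower with B than with A in PM, at 392 ± 12.3 against 564 ± 28.2 CPM (adjusted p = 3.75e-08), and the part of that difference in the members' values was not tested. With the replicate number as a block, which paired these libraries, 11 members were higher and 5 lower with B in PE (against 9.46% and 11.4%), and 11 higher and 10 lower in PM (against 14.8% and 15.5%).

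The replicate number in the labels went with the level of nearly all members, across lines and hairpins. As a median over the 19 transport, oxygen-sensing and HIF members, replicates 1 and 2 lay below the mean of their own group in all 6 groups, by −0.30 to −0.12 on the log2 scale for replicate 1 and −0.27 to −0.19 for replicate 2. Replicates 3 and 4 lay above it in all 6, by 0.03 to 0.31 and 0.21 to 0.29. For the 18 glycolytic enzymes the medians were −0.25 to −0.06, −0.20 to −0.09, −0.01 to 0.19 and 0.07 to 0.25 in replicates 1, 2, 3 and 4. In a test of the replicate number as a term in the edgeR fit, chosen after this was seen, 34 of 37 members passed (91.9%) against 8.41% of all tested genes. The 3 that did not were PFKM, HIF1A and ANKRD37.

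**Figure D4:**
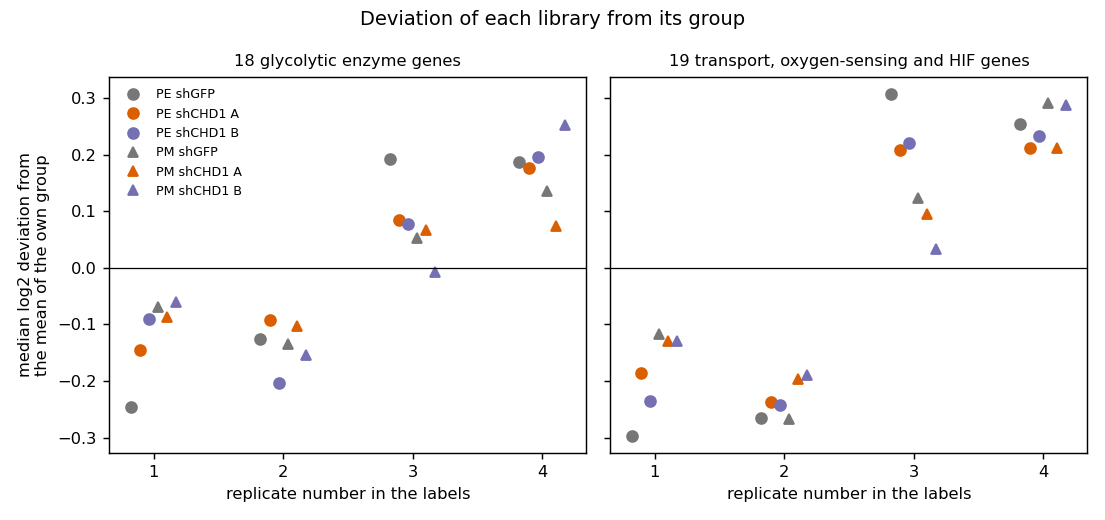
Median log2 deviation of each of the 24 libraries from the mean of its own group (y axis), against the replicate number in the labels (x axis), over 18 glycolytic enzyme genes (left) and 19 transport, oxygen-sensing and HIF genes (right), with 1 point per library. On the right, replicates 1 and 2 lie below 0 and replicates 3 and 4 above 0 in all 6 groups.

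CA9 moved most with the number: in PE shGFP it was at 14.5, 8.31, 48.6 and 72.8 CPM and in PM shGFP at 60.0, 28.9, 109 and 221. Relative to replicate 1, its fitted log2 level was −0.50, 1.04 and 1.82 in replicates 2, 3 and 4 (adjusted p = 3.57e-07). PFKFB4, a hypoxia-inducible relative of PFKFB3, was at 17.8, 12.7, 31.3 and 31.6 CPM in PE shGFP and at −0.24, 0.78 and 1.06 relative to replicate 1 over the groups. For NDRG1 these values were −0.23, 0.75 and 0.85, for ALDOC, the brain aldolase, −0.17, 0.80 and 0.84, and for LDHA −0.08, 0.19 and 0.33. HIF1A transcript itself, at −0.06, −0.11 and 0.04, did not pass (adjusted p = 0.181).

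A level below the group mean in replicates 1 and 2 and above it in 3 and 4, in all 6 groups, was found for 13 of the 37 members and for 44 of all 20820 tested genes (0.211%). This pattern was chosen after it was seen in the members themselves, so the contrast describes them and is not independent of that choice. The 13 were PFKL, PFKP, ALDOC, PGAM1, ENO2, PKM, EGLN1, CA9, P4HA2, NDRG1, BNIP3, BNIP3L and DDIT4. Of 47 tested HIF targets outside the members, 9 showed it, among them STC1, LOXL2, MIR210HG and FAM162A (chosen here after their values were seen), and 31 of the 47 (66%) passed the test of the number. Of 25 other glycolysis genes, 2 passed it. Total counts also differed by number, with medians of 34.3, 33, 74.5 and 50.6 M for replicates 1 to 4, and the part of depth in the pattern was not tested. The labels do not say what the replicate numbers stand for.

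The hairpins were also compared within each replicate number. The change of shCHD1 (mean of A and B) over shGFP was positive in all 4 numbers for 29 of 37 members in PE (against 22.1% of all tested genes) and negative in all 4 for 0 (against 17.5%). In PM it was positive in all 4 for 12 (against 23.4%) and negative in all 4 for 12 (against 24.3%). For BNIP3 in PE the log2 changes were 1.27, 0.94, 0.52 and 0.67 in numbers 1 to 4, and for NDRG1 0.74, 0.92, 0.93 and 1.01. For CA9, whose mean effect did not pass the test, they came to 1.88, 2.34, 1.30 and 1.33 in PE, while PM gave 0.35, 1.05, 0.29 and 0.21, and for ENO2 in PE 0.75, 1.31, 1.06 and 1.07. KDM3A was at −0.75, −0.55, −0.86 and −0.58 in PM, and HIF1A at −0.41, −0.37, −0.72 and −0.33. These values are descriptions of 3 libraries per number and line.

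Per kilobase of merged exons, levels of the members in PE shGFP spanned from 1400.4 CPM per kb for GAPDH to 0.117 for ANKRD37. After GAPDH came ENO1 at 730.5, DDIT4 at 446, LDHA at 398, TPI1 at 369 and PKM at 300.1 CPM per kb. By this level HK1 made up 79.1 ± 1.1% of the HK1 and HK2 sum in PE shGFP and 67.2 ± 0.797% in PM shGFP, and HK2 the rest. PFKP was the main phosphofructokinase, with 67.8 ± 1.41% in PE shGFP and 67.0 ± 0.307% in PM shGFP. The share of PFKM in that family was 19.1 ± 1.45% in PM shGFP and 22.9 ± 1.49% with shCHD1 A. P4HA1 took 65.4 ± 2.28% of the P4HA1 and P4HA2 sum in PE shGFP, 71.4 ± 0.555% with shCHD1 A and 75.1 ± 1.39% with shCHD1 B. ENO1 and SLC2A1 made up over 95% of their pairs in every group. Shares are given as the mean ± SD of 4 libraries and were not tested.

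Lists of neighbouring pathways were counted in the same way. In PE 13.1% of all tested genes rose and 12.7% fell, and in PM 13.3% rose and 15.1% fell. Of 47 other HIF targets 16 rose and 4 fell in PE, and 7 rose and 10 fell in PM, or 13 and 14 in PM with the replicate number as a block (15.1% and 17% of all tested genes). ERO1A, an oxidase of the endoplasmic reticulum, fell in PE (log2 change −0.44, adjusted p = 0.0387) and in PM (log2 change −0.81, adjusted p = 0.000281). CXCR4, the chemokine receptor, was at 0 in all libraries of PE shGFP, at 0, 0.0586, 0.361 and 0.225 CPM with shCHD1 A and at 0.659, 0.779, 1.05 and 1.04 with shCHD1 B. In PM it was at 0.757, 0.587, 1.18 and 2.68 CPM with shGFP, 4.2, 4.16, 2.77 and 7.88 with shCHD1 A and 4.95, 6.34, 4.67 and 9.51 with shCHD1 B. Between the lines with shGFP, 2 of the 47 were higher in PM (14.1% of all tested genes) and 15 lower (11.4%).

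Of 7 genes of the pentose phosphate pathway, which draws glucose 6-phosphate off for NADPH and ribose, 5 rose and 0 fell in PE, and 4 rose and 0 fell in PM. RPIA, ribose 5-phosphate isomerase, was at 9.35, 10.8, 9.87 and 13.0 CPM in PE shGFP, 25.5, 28.7, 27.8 and 27.1 with shCHD1 A and 25.9, 34.1, 28.4 and 29.7 with shCHD1 B (log2 change 1.36, adjusted p = 4.88e-12). In PM it went from 18.4, 18.0, 14.6 and 17.9 CPM with shGFP to 67.1, 79.9, 71.6 and 55.1 and 52.5, 63.7, 62.7 and 51.5 (log2 change 1.87, adjusted p = 4.61e-16), and no library with shCHD1 overlapped those with shGFP in either line.

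Of 25 other glycolysis genes, 4 rose and 5 fell in PE and 6 rose and 4 fell in PM, or 6 and 7 in PM with the block. In PE these counts lie near the shares of all tested genes. PDK4, a kinase that inhibits pyruvate dehydrogenase, was at 20.7, 23.5, 19.5 and 30.6 CPM in PE shGFP, 92.7, 80.5, 68.7 and 100.5 with shCHD1 A and 74.1, 75.1, 63.6 and 85.2 with shCHD1 B, without overlap (log2 change 1.74, adjusted p = 3.82e-06). In PM it was at 8.22, 7.34, 6.15 and 12.5 CPM with shGFP, 22.0, 18.6, 15.3 and 25 with shCHD1 A and 67.7, 64.4, 44.3 and 87.0 with shCHD1 B (log2 change 2.10, adjusted p = 3.84e-07), whereas its paralogue PDK1, the member, did not pass in either line. Of 9 other sugar and lactate transporters, 2 rose and 1 fell in PE and 3 rose and 1 fell in PM. BSG, the chaperone of lactate transporters, rose (log2 change 0.46, adjusted p = 1.02e-06 in PE; log2 change 0.49, adjusted p = 2.54e-07 in PM), and EMB, another chaperone of that kind, fell (log2 change −0.50, adjusted p = 1.57e-07; log2 change −0.59, adjusted p = 3.06e-09).

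Among 17 other oxygen-sensing genes, 6 rose and 3 fell in PE and 5 rose and 5 fell in PM. SIAH2, a ubiquitin ligase that targets prolyl hydroxylases, fell in PE (log2 change −0.66, adjusted p = 6.26e-07) and in PM (log2 change −0.56, adjusted p = 4.33e-06). CITED4, a transcriptional cofactor that binds p300, rose in PE (log2 change 0.75, adjusted p = 4.72e-06) and in PM (log2 change 0.79, adjusted p = 1.17e-06). EPAS1, which encodes HIF-2 alpha, was lower in PM than in PE with shGFP, at 147, 147, 143 and 148 against 317, 305, 353 and 368 CPM (log2 change −1.20, adjusted p = 8.81e-16), beside the lower HIF1A given above.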

How the data were processed

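RNA-seq read counts per gene were deposited by the authors as 1 table of 59251 genes in 24 libraries, unnormalized. Per the submitters' processing notes, FastQC, Trim Galore 0.4.0, HISAT2 2.2.1, featureCounts and GRCh38 were used. The annotation release and the strand and multi-mapping settings were not given in the labels used here, which leaves overlapping genes and near-identical copies uncertain. In R 4.3.3, edgeR 4.0.16 (TMM scaling, filterByExpr, robust quasi-likelihood test, Benjamini-Hochberg adjustment over 20820 genes, threshold 0.05) was fitted to all 24 libraries, with 18 residual degrees of freedom and contrasts between the 6 groups, and was tested on simulated data. Library totals of 4.14 to 93.3 M counts set the precision of low genes. DESeq2 1.42.0, limma-voom (limma 3.58.1), other scalings and filters, a replicate block and fits without single libraries were the alternatives.

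The members and lists were chosen with earlier results of these data known. Members with library values were the 8 largest changes past the threshold per comparison (4 per line between hairpins), with a mean of at least 1 CPM, and the paralogue pairs. Other lists gave up to 4 genes. The printed promoters depart from the planned choice, which only VEGFA met, a gene with no promoter entry. The labels number the libraries without saying what a number shares. In the names of the count columns, running sample numbers are consecutive within each replicate number across the groups, and their meaning is not given. The numbers were taken as pairing a comparison where all its pairs of same-numbered libraries had a correlation of deviations from the group means over 0.1. This held for the mean effect in PM, shCHD1 A in PE, each hairpin in PM, and B against A in both lines, where the blocked values are printed beside the results. Over 11049 genes 54 of 60 pairs passed, with correlations from 0.02 to 0.46.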

Additional observations from a re-analysis of the deposited data

Results flagged for a closer look

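The effect of shCHD1 differed between the lines for 4 members by the test of the difference itself (PM minus PE, log2 scale). The difference was −0.44 for HIF1A, −0.37 for PKM, −0.37 for SLC16A3 and −0.33 for ENO1, with edgeR adjusted p of 0.00317, 0.0328, 0.0362 and 0.0192. For HIF1A the mean effect in PE combines changes of opposite sign with shCHD1 A and shCHD1 B, and the difference was not tested for each hairpin.

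In 3 cases 1 library lay far from the other 3 of its group, with a gap above the 95% critical value of Dixon's test. MYC was at 249 CPM in replicate 1 of PE shGFP, the library with the fewest counts, below the others of that group. ENO1 was at 3550 CPM in replicate 4 of PM shCHD1 B, above the others. CA12 was at 126 CPM in replicate 4 of PM shGFP, above the others, which lay at 118 and 119. Over 23 genes 138 groups of 4 were examined, and chance alone flags about 1 in 20 groups.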

How the results depend on the processing

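DESeq2 size factors in edgeR, total counts without scaling, the DESeq2 Wald test, a minimum of 5 CPM in 4 libraries and a fit of only the groups compared kept every count of members called within 1.5 times that reported. For the difference between the lines (4 calls), limma-voom gave 2 and no filter on low counts gave 8. With the replicate number as a block, calls were 30 for the mean effect in PE (reported 13), all of them rises, and 17 for that in PM (5). They were 29 for shCHD1 A in PE (12), 19 for shCHD1 A in PM (7) and 17 for shCHD1 B in PM (6). PM against PE gave 21 (8), with 9 higher and 12 lower in PM. The difference gave 28 (4), all of them negative, and B against A gave 16 in PE (5) and 21 in PM (8). For the mean effect in PE, PM against PE and the difference, no share of all tested genes under the block is given here. A general gain in calls therefore cannot be told apart there from one of the members. For the mean effect in PE, shCHD1 B in PE, PM against PE and the difference, the numbers did not meet the rule for pairing. In the first of these and in shCHD1 B in PE the miss was narrow. It came from replicate 1 of PE shGFP and PE shCHD1 B, with a correlation of 0.0976 against the 0.1 required. The lowest correlation was 0.0915 for PM against PE and 0.0221 for the difference. Whether the numbers pair the libraries in these comparisons is not known, though the running sample numbers in the column names are consecutive within each replicate number. Over all groups, 22 of 24 libraries correlated best with a library of their own number, a hint from the data and not the design. Leaving out 1 library at a time gave 10 to 17 calls for the mean effect in PE, 4 to 6 in PM, and 8 to 14 for shCHD1 A in PE. It gave 11 to 19 for shCHD1 B in PE, 6 to 7 for shCHD1 A in PM, and 6 to 8 for shCHD1 B in PM. It gave 6 to 9 for PM against PE, 1 to 5 for the difference, 4 to 5 for B against A in PE and 7 to 9 in PM. Without the 3 libraries that stood apart, chosen after seeing the data, shCHD1 A in PE gave 7 calls, shCHD1 B in PE 10 and the difference 1. The mean change of HIF1A in PE, −0.01 and not called, turned positive with limma-voom (0.0023) and without those 3 libraries (0.026). Of the 12 fits without single libraries it turned positive in 1, that without replicate 1 of PE shGFP. Those fits ranged from −0.041 to 0.031. Of the single-gene values under all alternatives, 623 kept direction and call, 68 lost the call and 3 turned direction. The cause of these changes was not tested. ANKRD37 and SLC2A3 rest on few counts, near or under 1 CPM in many libraries, and the ANKRD37 row also overlaps other genes.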
